A study of Mus musculus with 6 samples.

Results

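Solute carriers are the membrane proteins that move amino acids, sugars, nucleotides, metals, ions and vitamins across cell and organelle membranes, and their genes carry symbols made of Slc, a family number, the letter a and a member number. All rows of the deposited count table with a symbol of that form were taken, which gave 184 of the 11779 genes in the table. A further 26 symbols that begin with Slc have another form (Slco genes and others) and were not included. The members were grouped by what they carry, from textbook knowledge: 31 for amino acids and peptides, 15 for sugars, 5 for nucleotide sugars, 37 of the Slc25 carrier family, 23 for metals and heme, 23 for inorganic ions and pH, and 50 for carboxylates, vitamins, nucleosides, lipids and organic ions.

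RNA was sequenced from long-term hematopoietic stem cells of female mice aged 8 weeks, sorted as lineage-negative, Sca1-positive, c-Kit-positive, CD48-negative and CD150-positive. Each library carried 1 floxed allele of c-Myc, the gene of a growth-regulating transcription factor, and the 3 WT libraries (c-Mycfl/+) lacked Cre while the 3 HET libraries (c-Mycfl/+Mx1Cre) carried the Mx1-Cre transgene. Deletion was induced with poly(I:C), an interferon inducer, at 6 mg/kg in 3 injections, and the design does not say separately whether the WT mice were injected. Mx1-Cre is driven by an interferon-responsive promoter and acts in blood cells in general and in other tissues, so deletion was not restricted to stem cells. Libraries are numbered 1, 3 and 4 in both groups. Nothing says that they came from separate animals, so p-values measure only the spread between these samples. In bulk RNA, fewer cells of a type and less RNA per cell cannot be told apart.

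Solute carriers work mostly as exchangers, as cotransporters driven by ion gradients, or as facilitators that let a solute run down its gradient. Growing cells draw on them for leucine and glutamine, which feed the growth kinase mTORC1, for glucose, and for the export of lactate. Inside the cell, the Slc25 family joins mitochondria to the cytosol by carrying phosphate, adenine nucleotides and citrate. MYC is known to activate several of these genes, among them Slc1a5, Slc7a5, Slc2a1 and Slc16a1, in growing cells, and hematopoietic stem cells are mostly quiescent. The comparison asks how the transporters differ when Cre has acted on 1 c-Myc allele.

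The targeted gene, Myc (ENSMUSG00000022346), was read at 447, 427 and 542 CPM in WT 1, 3 and 4 against 294, 387 and 372 CPM in HET 1, 3 and 4, where CPM are counts brought to 1 shared library scale. All 3 HET libraries lay below all 3 WT libraries. The log2 difference was -0.43 ± 0.12 (SE), with an edgeR adjusted p over all genes of 0.312. Library totals ran from 4249490 to 9886223 counts, HET 1 being the deepest, and 1 count corresponded to between 0.0992 and 0.238 CPM.

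The transporters with the highest level per exonic kilobase served heme, phosphate, amino acids and sugars. Slc48a1 (ENSMUSG00000081534, chr15:97778520-97792692, plus strand, GRCm38), which moves heme out of endolysosomes, stood at 75.5 ± 5.20 CPM per kb in WT against 72.9 ± 4.30 in HET (mean ± SD of 3 libraries, as for all such values). Slc25a3, the mitochondrial phosphate carrier, stood at 69.0 ± 4.28 and 54.1 ± 4.06 CPM per kb. Slc3a2, the CD98 heavy chain that holds amino acid exchangers at the cell surface, stood at 69.6 ± 5.49 and 52.2 ± 9.40 CPM per kb. The levels of these 3 genes overlapped between the WT libraries, and in HET Slc48a1 lay above the other two. Slc50a1, a sugar transporter of the SWEET type, followed at 51.3 ± 2.89 and 55.2 ± 6.01 CPM per kb, and Slc25a5, a mitochondrial ADP/ATP carrier, at 45.9 ± 7.53 and 50.03 ± 10.7 CPM per kb. Slc25a5 has processed pseudogenes, so its reads may have been split or shared, and Slc48a1 shares exonic sequence on the opposite strand with Hdac7, so both levels are uncertain.

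Most solute carriers were of modest abundance in these cells. Of 184 members, 57 lay above the median level per kb of all genes in the table and 6 lay above its 90th percentile. The members together took 7756 ± 48.9 CPM in WT against 7612 ± 78.5 CPM in HET. The 5 members of highest CPM, not scaled by length, held 17.8% of the summed level. They are not the same set as the 5 of highest level per kb. Exons of 46 members overlap another gene on the opposite strand and those of 9 on the same strand, and the strand setting of the counting is unknown, so values of such members are uncertain.

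**Figure D1:**
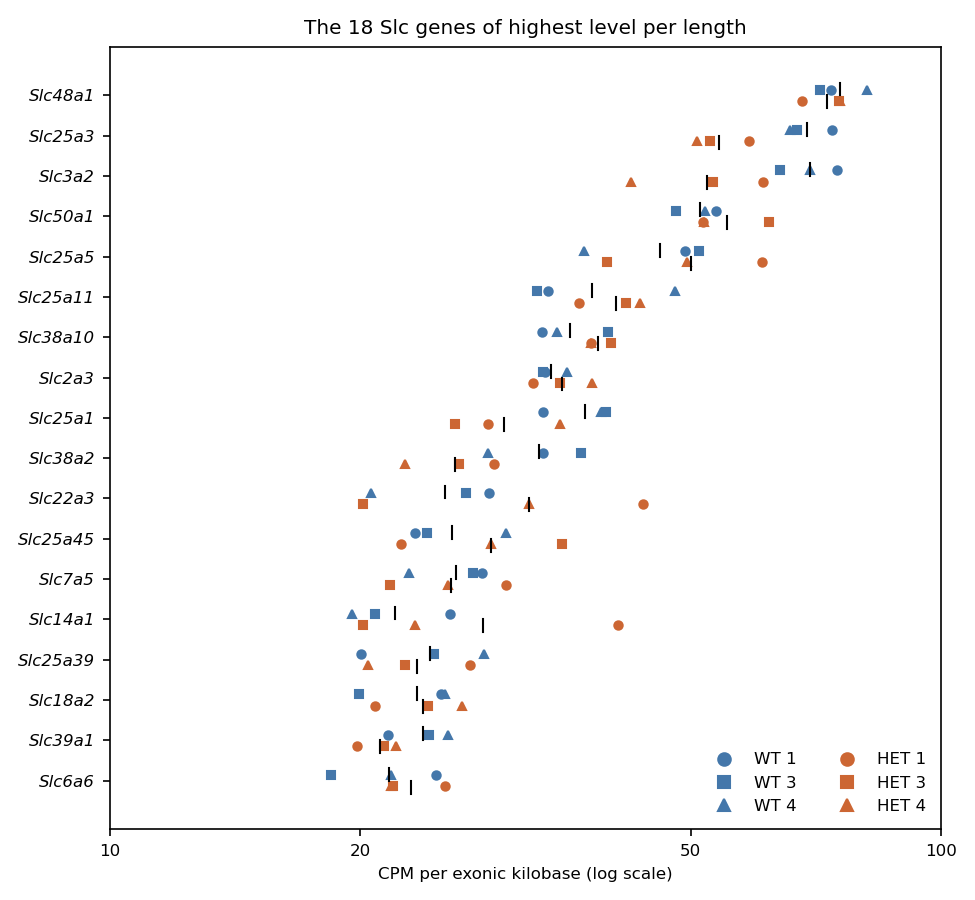
Level of the most abundant solute carrier genes in CPM per exonic kilobase (log axis). Points are single libraries, WT in blue and HET in orange with a shape per library number, and black ticks are group means. Slc48a1, Slc25a3 and Slc3a2 lead, and the libraries of the 2 groups overlap for most of the genes shown, with Slc25a3 and Slc3a2 lower in all 3 HET libraries.

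No solute carrier gene passed the test between HET and WT. Of the 170 members with enough counts to test, 0 were called higher and 0 lower at an adjusted p under 0.05 in edgeR's quasi-likelihood test, against 0.258% of all 10869 genes tested (28 genes, with 0.0368% called higher and 0.221% lower). DESeq2 and limma-voom also called 0 members, where DESeq2 gave an adjusted p for only 149 of them. At an unadjusted p under 0.05, edgeR gave 12 members (7.06%), against a background of 5.22%, DESeq2 gave 13 and limma-voom 11. Of the 12, 5 were higher and 7 lower in HET, against 2.02% and 3.19% of all genes, and without HET 4 the count was 5. The groups did not overlap for 17 members (10%), 6 higher and 11 lower, against 10.3% of all genes tested (4.69% higher and 5.64% lower). Both shares lay near the background. The median log2 difference over the members was 0.01, with 87 members positive and 83 negative, and the median over all genes tested was 0.00.

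The precision of the comparison depended on abundance. The 95% interval of the log2 difference lay within a 2-fold change in either direction for 114 of 170 members, and within a 1.5-fold change for 53. All 73 members whose average log2 CPM was 5 or more had intervals within 2-fold, against 41 of the 97 less abundant members. The differences ran from -1.84 for Slc6a9 to 1.42 for Slc25a14, both genes of few counts. The other 14 members had too few counts to test, with at most 32 counts or 5.23 CPM in any library. The groups did not overlap for 4 of these 14. The share of 10.3% covers tested genes only, so this count has no background beside it and is a description only.

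**Figure D2:**
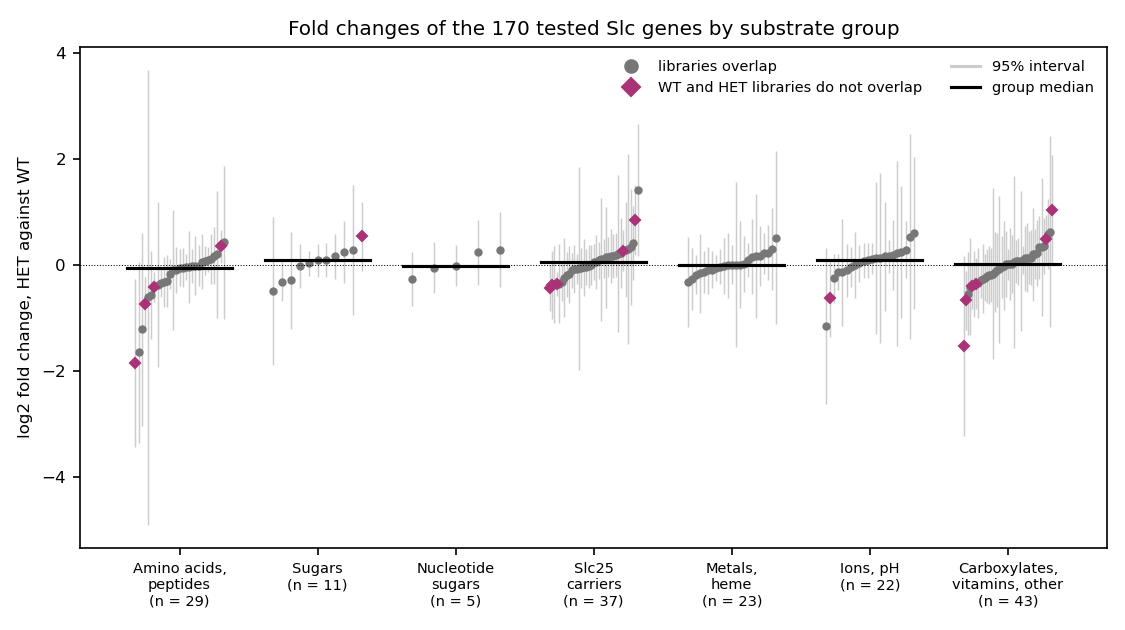
Log2 difference between HET and WT for each tested solute carrier gene, by substrate group, with grey lines for 95% intervals, a black line for the group median and diamonds for genes whose libraries do not overlap between the groups. Each group's median lies between -0.04 and 0.11, and no gene passed at an adjusted p under 0.05.

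**Figure D3:**
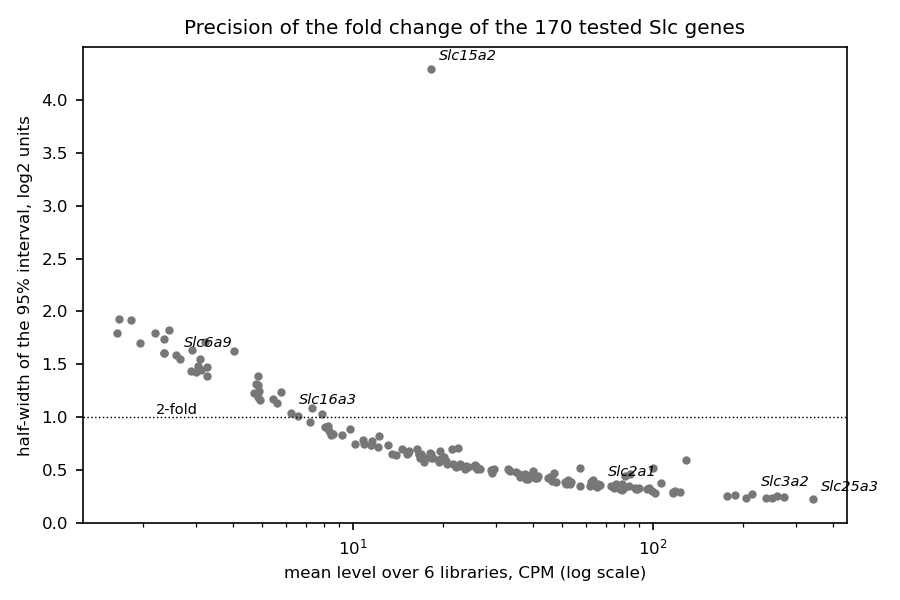
Half-width of the 95% interval of the log2 difference for each of the 170 tested solute carrier genes against its mean level in CPM (log axis), with a dotted line at a 2-fold width. The intervals narrow as the level rises, and Slc15a2 stands apart with an interval from -4.89 to 3.69.

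Among 10 transporter genes described elsewhere as MYC targets, 9 were measured and tested, and 0 were called. Their median log2 difference was -0.04, with 3 positive and 6 negative. The groups did not overlap for 1 gene that was higher (Slc1a5) and 2 that were lower (Slc3a2 and Slc25a3), which is 33.3% of the list against 10.3% of all genes, and the same 3 had an unadjusted p under 0.05 (5.22% of all genes). The summed level of the list ran from 1037 to 1099 CPM in WT and from 848 to 994 CPM in HET. Without Slc3a2 and Slc25a3, left out after seeing the data, it ran from 425 to 444 CPM in WT and from 403 to 453 CPM in HET, so the separation of the sums rests on these 2 genes. Of 9 genes described as targets of ATF4, the amino acid stress factor, 8 were measured and 7 tested, with 0 called, a median of -0.16, 1 positive and 6 negative. In that list 4 of 7 had an unadjusted p under 0.05 (57.1%) and 3 of 7 had groups without overlap (42.9%). The lists share Slc1a5, Slc3a2 and Slc7a5, and their genes were chosen with earlier results of these data known, so these shares are a description only.

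The DNA word CACGTG, the canonical E-box that MYC and its partner MAX bind (other factors such as USF and TFE3 bind it too), was searched in RefSeq promoters, which run from 250 bases before to 50 after each gene start (GRCm38.p6). The word reads the same on both strands. It was present in 27 of 170 promoters (15.9%) that belong to 123 tested solute carrier genes, some with more than 1 promoter. Of all 32851 promoters, 2349 held it (7.15%), and these include promoters of genes not tested here, so the sets are unlike. Counted per tested gene, 25 of 123 members with a promoter in the table held it (20.3%), against 1015 of 8294 genes (12.2%). The median log2 difference was -0.01 in the 25 members with the word and 0.01 in those without, and 13 of the 25 were negative. An ATF4-type element, TGATGNAAN, searched on both strands, was found in 4 of 123 members (3.25%; Slc1a4, Slc50a1, Slc7a7 and Slc9a9), against 2.65% of all genes. A match is a description of the letters in the window and not a measured binding site.

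The following promoters are shown because they belong to a lactate carrier, a leucine carrier and a phosphate carrier with the E-box and to the abundant mitochondrial phosphate carrier without it. Each is 300 bases, 5′ to 3′ on the gene's strand, with CACGTG in capitals. They lie at chr3:104638414-104638713 (plus) for Slc16a1, chr2:84840073-84840372 (plus) for Slc43a1, chr2:129198523-129198822 (plus) for Slc20a1 and chr10:91123918-91124217 (minus) for Slc25a3.
Slc16a1: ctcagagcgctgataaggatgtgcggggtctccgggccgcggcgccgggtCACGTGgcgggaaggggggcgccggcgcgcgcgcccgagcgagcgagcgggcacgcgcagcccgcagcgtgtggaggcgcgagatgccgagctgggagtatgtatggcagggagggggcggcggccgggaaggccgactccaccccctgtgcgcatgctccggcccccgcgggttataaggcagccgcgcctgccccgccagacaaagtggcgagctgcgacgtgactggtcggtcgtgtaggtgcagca
Slc43a1: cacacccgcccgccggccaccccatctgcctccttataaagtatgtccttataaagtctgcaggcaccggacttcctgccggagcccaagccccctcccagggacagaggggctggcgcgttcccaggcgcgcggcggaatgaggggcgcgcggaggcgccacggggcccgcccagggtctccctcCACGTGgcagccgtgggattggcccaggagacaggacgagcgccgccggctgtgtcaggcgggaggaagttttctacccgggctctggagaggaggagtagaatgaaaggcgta
Slc20a1: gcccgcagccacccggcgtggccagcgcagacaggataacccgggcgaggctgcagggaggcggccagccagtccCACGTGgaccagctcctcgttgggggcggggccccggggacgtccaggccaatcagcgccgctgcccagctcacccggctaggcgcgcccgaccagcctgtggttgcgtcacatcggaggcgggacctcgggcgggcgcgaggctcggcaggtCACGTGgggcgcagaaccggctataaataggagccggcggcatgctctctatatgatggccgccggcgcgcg
Slc25a3: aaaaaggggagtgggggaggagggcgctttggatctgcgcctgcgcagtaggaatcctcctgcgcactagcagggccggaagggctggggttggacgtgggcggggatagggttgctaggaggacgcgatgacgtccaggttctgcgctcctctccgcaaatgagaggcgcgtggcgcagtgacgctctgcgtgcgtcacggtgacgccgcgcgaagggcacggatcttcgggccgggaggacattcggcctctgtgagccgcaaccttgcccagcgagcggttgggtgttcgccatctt
The word begins 200 bases before the start in Slc16a1 and 64 before it in Slc43a1. Slc20a1 holds it at 2 places, the first 175 bases before the start, and a second RefSeq promoter of that gene (chr2:129206846-129207145, plus), not shown, does not hold the word.

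Slc16a1, the lactate and pyruvate carrier MCT1, measured 98.3, 94.0 and 70.1 CPM in WT 1, 3 and 4 against 103, 58.7 and 60.0 CPM in HET 1, 3 and 4. The libraries numbered 1 were the highest of their groups and the groups overlapped (log2 difference -0.23 ± 0.21, adjusted p = 0.995 in edgeR). Slc43a1, a facilitator of leucine and other large neutral amino acids, measured 49.6, 53.6 and 53.4 CPM in WT against 48.4, 50.4 and 53.6 CPM in HET. These 6 values lay within 1.11-fold of each other, and the log2 difference of -0.04 had a 95% interval from -0.41 to 0.33. Slc20a1, a plasma membrane phosphate importer, measured 116, 84.5 and 73.9 CPM in WT against 105, 59.1 and 66.3 CPM in HET, again with the libraries numbered 1 highest (log2 difference -0.25 ± 0.22).

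In the amino acid and peptide group, 0 of 29 tested members were called. The median log2 difference was -0.04, with 8 positive and 21 negative (72.4% negative, against 49.3% of all genes). The median was -0.0947 with limma-voom and lay between -0.125 (without HET 1) and -0.0558 (without WT 3) when 1 library was left out. The unadjusted p was under 0.05 for 5 members (17.2%, against 5.22% of all genes), and the groups did not overlap for 4 (13.8%, against 10.3%), 1 higher and 3 lower. The summed level of the group was 2036 ± 63.9 CPM in WT against 1894 ± 93.6 CPM in HET, with overlap between the libraries.

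Slc3a2 (ENSMUSG00000010095, chr19:8706882-8723369, minus strand) measured 265, 226 and 245 CPM in WT 1, 3 and 4 against 216, 188 and 150 CPM in HET 1, 3 and 4. All HET libraries lay below all WT libraries, HET 4 lowest. HET stood at 75.2% of WT (95% interval 62.0% to 91.2%), a log2 difference of -0.41 ± 0.13 with an unadjusted p of 0.00580 and an adjusted p of 0.495 in edgeR. Without HET 1 the log2 difference was -0.54 and the adjusted p 0.0515, the smallest that any member reached in any fit. Its best known partner Slc7a5, the LAT1 light chain that exchanges glutamine for leucine, measured 104, 102 and 84.9 CPM in WT against 111, 80.5 and 94.7 CPM in HET. The groups overlapped throughout, and HET stood at 98.7% of WT (95% interval 78.9% to 123%). The ratio of Slc3a2 to Slc7a5 per kb was 2.68 ± 0.349 in WT and 2.05 ± 0.394 in HET (exact two-sided permutation p = 0.2).

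Slc1a5, the glutamine importer ASCT2, measured 66.0, 71.0 and 69.9 CPM in WT against 82.3, 92.7 and 90.6 CPM in HET. All HET libraries lay above all WT libraries, with an SD of 2.60 CPM in WT. HET stood at 128% of WT (95% interval 103% to 160%), a log2 difference of 0.36 ± 0.15 with an adjusted p of 0.844 in edgeR, and the exact permutation p was 0.1, the smallest that 3 against 3 allows. Slc38a2, the amino-acid-regulated carrier SNAT2, measured 293, 326 and 252 CPM in WT against 256, 233 and 200 CPM in HET, with WT 4 just below HET 1 (log2 difference -0.34 ± 0.13, adjusted p = 0.722). Its relative Slc38a1 measured 297, 269 and 268 CPM in WT against 310, 252 and 254 CPM in HET, a log2 difference of -0.03. Slc38a10 stood at 230 ± 22.4 CPM in WT against 248 ± 7.87 CPM in HET.

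The scarcer amino acid carriers had wider errors. Slc6a15, a sodium-coupled carrier of branched-chain amino acids and proline, measured 45.5, 38.1 and 26.7 CPM in WT against 19.7, 24.0 and 23.2 CPM in HET. The groups did not overlap, and HET stood at 60.3% of WT (95% interval 42.3% to 86.0%, adjusted p = 0.546 in edgeR). Slc6a9, the glycine transporter GLYT1, measured 2.53, 5.85 and 3.82 CPM in WT against 1.59, 0.654 and 0.974 CPM in HET, and its exons overlap those of B4galt2 and Ccdc24 on the opposite strand (log2 difference -1.84 ± 0.76, adjusted p = 0.840). Slc7a11, the cystine-glutamate exchanger, was too scarce to test at 5.23, 2.74 and 0.954 CPM in WT against 1.39, 1.09 and 0.195 CPM in HET, where the groups overlapped.

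**Figure D4:**
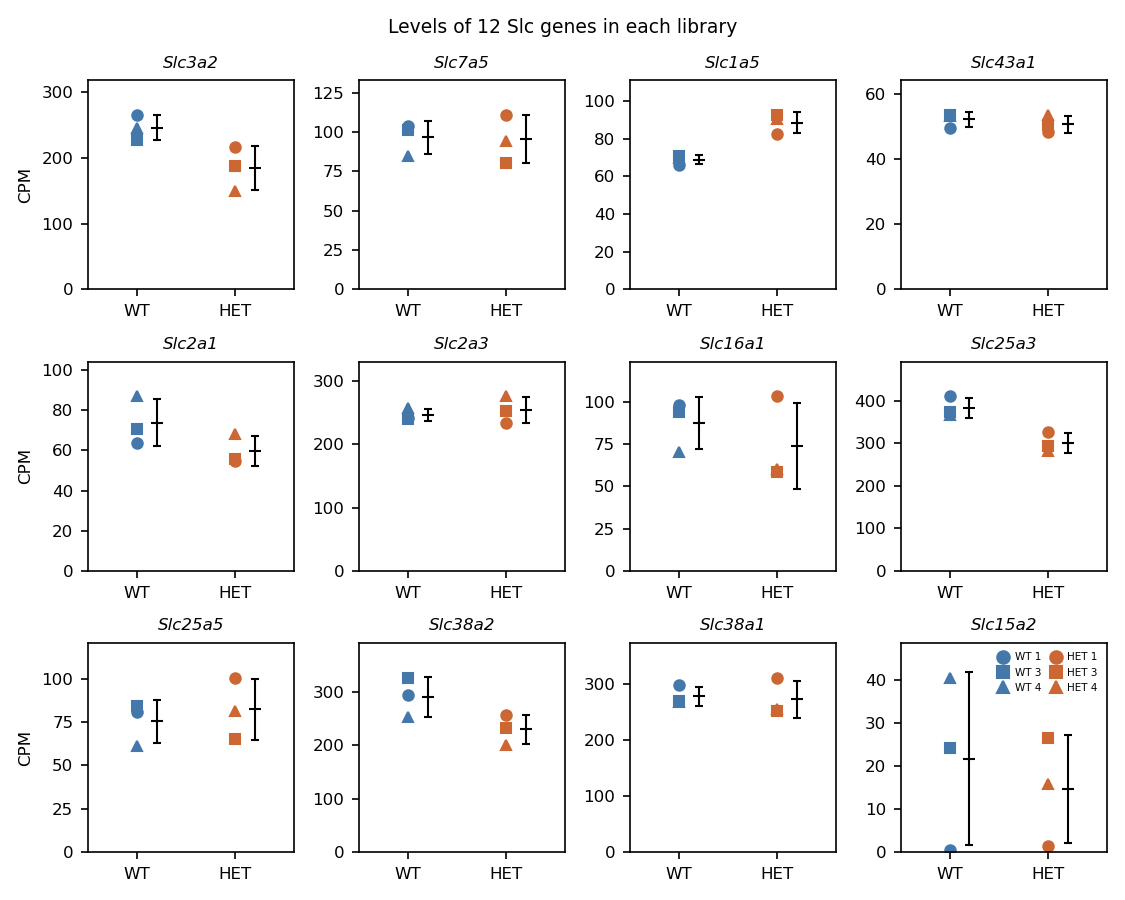
CPM in each of the 6 libraries for 12 solute carrier genes, with shapes for library numbers 1, 3 and 4 and bars for the mean ± SD of each group. Slc3a2 and Slc25a3 are lower and Slc1a5 is higher in all 3 HET libraries, while Slc7a5 and Slc2a3 overlap between the groups.

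A peptide importer varied between libraries more than between groups. Slc15a2, the proton-coupled peptide transporter PEPT2 (ENSMUSG00000022899, chr16:36750177-36784962, minus strand), measured 0.541, 24.3 and 40.5 CPM in WT 1, 3 and 4 against 1.49, 26.6 and 16.0 CPM in HET 1, 3 and 4. The library numbered 1 was low in both groups, by counts of 3 in WT 1 and 15 in HET 1. The log2 difference between the groups was -0.60 ± 1.58, with the widest interval of any member, from -4.89 to 3.69. Both libraries numbered 1 lay more than 5 times below each of the other 4 for 12 of the 11779 genes. They lay more than 5 times above the other 4 for 8 genes. Slc15a2 was the only one of the 12 with the other 4 libraries at 10 CPM or more. These cuts were set after its values were seen, so that it stands alone follows in part from them. Whatever the number 1 marks is not stated in the labels, and the split was noticed after the values were seen.

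In the sugar group 0 of 11 tested members were called, and the median log2 difference was 0.10 (7 positive, 4 negative). Slc2a3, the high-affinity glucose transporter GLUT3, measured 242, 240 and 257 CPM in WT against 234, 252 and 275 CPM in HET. The groups overlapped, and HET stood at 103% of WT (95% interval 87.4% to 121%). Slc2a1, the widespread glucose transporter GLUT1, measured 63.9, 70.6 and 86.8 CPM in WT against 54.9, 55.6 and 68.0 CPM in HET. HET 4 lay above WT 1, and the log2 difference was -0.31 with a 95% interval from -0.67 to 0.06 (adjusted p = 0.980 in edgeR). Slc2a3 held 37.9% of the summed level of the group. The ratio of Slc2a3 to Slc2a1 per kb was above 1 in every library, at 1.83, 1.65 and 1.43 in WT and 2.06, 2.196 and 1.96 in HET, and the pair was chosen after the values were seen (exact two-sided permutation p = 0.1).

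Slc37a4, which brings glucose-6-phosphate into the endoplasmic reticulum, measured 8.84, 15.6 and 12.6 CPM in WT against 18.5, 17.4 and 18.3 CPM in HET. All HET libraries lay above all WT libraries (log2 difference 0.55 ± 0.31, unadjusted p = 0.0911 and adjusted p = 0.980 in edgeR). It was the only tested member of the sugar group without overlap in either direction (9.09%, against 10.3% of all genes). The urate transporter Slc2a9 had a log2 difference of 0.26 ± 0.28, the inositol importer Slc5a3 of 0.17 ± 0.21 and Slc50a1 of 0.11 ± 0.16. The exons of Slc5a3 overlap Mrps6 on the same strand, so its value is uncertain.

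Nucleotide-sugar transporters load the Golgi with the donors for glycan synthesis. All 5 members were tested and 0 were called, with a median log2 difference of -0.01. The CMP-sialic acid transporter Slc35a1 had a log2 difference of -0.26 ± 0.24, the UDP-galactose transporter Slc35a2 of 0.25 ± 0.30 and the UDP-N-acetylglucosamine transporter Slc35a3 of -0.04 ± 0.23. Slc35a4 and Slc35a5 had log2 differences of -0.01 ± 0.19 and 0.30 ± 0.34. The groups overlapped for all 5.

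The Slc25 family, most of whose members sit in the mitochondrial inner membrane, had 0 of 37 members called and a median log2 difference of 0.07 (20 positive, 17 negative). The median was -0.0055 with a stricter filter on low counts, so its sign depends on that choice. Its sign also depended on which library was left out. The unadjusted p was under 0.05 for 4 members (10.8%, against 5.22% of all genes), and the groups did not overlap for 2 higher and 3 lower members (13.5%, against 10.3%). Its summed level was 1693, 1674 and 1717 CPM in WT against 1633, 1639 and 1599 CPM in HET. All 3 HET sums lay below all 3 WT sums, and Slc25a3 alone held 20.6% of the sum. Without Slc25a3, a sum added after seeing the data, the level was 1283, 1301 and 1351 CPM in WT against 1307, 1346 and 1316 CPM in HET, with overlap and the higher mean in HET.

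Slc25a3 (ENSMUSG00000061904, chr10:91116574-91124059, minus strand), which supplies phosphate for ATP synthesis, measured 410, 373 and 366 CPM in WT against 326, 293 and 283 CPM in HET. The lowest WT library lay above the highest HET library. HET stood at 78.5% of WT (95% interval 67.0% to 92.0%), a log2 difference of -0.35 ± 0.11 with an unadjusted p of 0.00455 and an adjusted p of 0.458 in edgeR. This was the smallest unadjusted p among the members. Slc25a5 measured 81.0, 84.2 and 61.3 CPM in WT against 100, 65.2 and 81.5 CPM in HET, with overlap (log2 difference 0.13 ± 0.18). Slc25a1, the citrate carrier that feeds lipid synthesis, measured 71.8, 85.6 and 84.4 CPM in WT against 61.7, 56.3 and 75.4 CPM in HET, with HET 4 above WT 1 (log2 difference -0.32 ± 0.17, adjusted p = 0.957).

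Slc25a16, a carrier linked to coenzyme A in mitochondria, measured 10.3, 10.1 and 8.59 CPM in WT against 16.6, 17.0 and 18.9 CPM in HET. The groups stood well apart relative to their spread, and HET was at 181% of WT (95% interval 114% to 285%, adjusted p = 0.722 in edgeR). Slc25a17, a peroxisomal carrier of cofactors, measured 41.5, 47.2 and 40.1 CPM in WT against 50.1, 50.2 and 55.9 CPM in HET, again without overlap (log2 difference 0.28 ± 0.19). Slc25a28, the iron carrier mitoferrin 2, measured 43.1, 49.4 and 49.1 CPM in WT against 40.9, 27.7 and 35.9 CPM in HET, without overlap in the other direction (log2 difference -0.43 ± 0.21, adjusted p = 0.950). Slc25a14, an uncoupling-type carrier, was scarce at 3.97, 1.83 and 2.15 CPM in WT against 9.82, 3.27 and 8.18 CPM in HET, with HET 3 below WT 1.

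In the metal and heme group, as drawn here, no member separated WT from HET. Of its 23 members, all tested, 0 were called. Of them, 0 had an unadjusted p under 0.05, against 5.22% of all genes, and 0 had groups without overlap, against 10.3%. This depends on the grouping, since the iron carrier Slc25a28, whose WT and HET libraries did not overlap, was counted with the Slc25 family. Slc48a1 measured 203, 197 and 224 CPM in WT against 187, 207 and 208 CPM in HET, and HET stood at 96.5% of WT (95% interval 81.5% to 114%). The plasma membrane zinc importer Slc39a1 had a log2 difference of -0.17 ± 0.18, and Slc30a7, which loads zinc into the secretory pathway, of 0.23 ± 0.19. Slc39a13 and Slc30a4, both zinc transporters of internal membranes, had log2 differences of 0.24 ± 0.25 and -0.26 ± 0.28. The median of the group was 0.01.

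Among the carriers of inorganic ions, 0 of 22 tested members were called and 0 had an unadjusted p under 0.05, against 5.22% of all genes. The median log2 difference was 0.11, with 15 positive and 7 negative, and -0.0025 without HET 3. The potassium-chloride cotransporter Slc12a7 stood at 111 ± 15.7 CPM in WT against 125 ± 17.9 CPM in HET. Slc26a11, an anion transporter, measured 17.3, 11.3 and 12.9 CPM in WT against 7.64, 10.5 and 9.35 CPM in HET (log2 difference -0.61 ± 0.35, adjusted p = 0.980 in edgeR). It was the only tested member of the group without overlap, which is 4.55% of the group, against 10.3% of all genes. The scarce calcium exchanger Slc24a3 had a log2 difference of -1.14 ± 0.71.

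The largest group, for carboxylates, vitamins, nucleosides, lipids and organic ions, had 0 of 43 tested members called and a median log2 difference of 0.02 (23 positive, 20 negative). Of its monocarboxylate carriers besides Slc16a1, Slc16a3, the lactate exporter MCT4, measured 2.35, 4.39 and 5.49 CPM in WT against 7.94, 9.60 and 7.60 CPM in HET. Its groups did not overlap. The log2 difference was 1.05 ± 0.50, with an adjusted p of 0.950 in edgeR.

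Slc10a7, of the bile acid carrier family, measured 32.5, 35.5 and 27.9 CPM in WT against 45.5, 36.6 and 53.4 CPM in HET, without overlap (log2 difference 0.50 ± 0.21, adjusted p = 0.844 in edgeR). Slc46a1, the proton-coupled folate transporter, measured 2.35, 2.56 and 3.82 CPM in WT against 0.794, 0.872 and 1.36 CPM in HET, from 4 to 16 counts a library (log2 difference -1.52 ± 0.82). Its groups did not overlap, with an adjusted p of 0.972. The reduced folate carrier Slc19a1 stood at 44.3 ± 7.57 CPM in WT against 46.7 ± 10.3 CPM in HET, and the nucleoside transporter Slc29a2 at 7.73 ± 1.55 and 8.95 ± 2.90 CPM. Slc33a1, which carries acetyl-CoA into the endoplasmic reticulum, had a log2 difference of 0.59 ± 0.31.

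Slc22a3 and Slc14a1 were the most abundant members of this group per kb. Slc22a3, an organic cation transporter, measured 129, 121 and 93.0 CPM in WT against 198, 90.9 and 144 CPM in HET, and Slc14a1, a urea transporter, measured 103, 83.2 and 78.2 CPM in WT against 163, 80.5 and 93.0 CPM in HET. HET 1 was the highest library for both, and the groups overlapped. The log2 differences were 0.34 ± 0.26 and 0.36 ± 0.24. The exons of Slc22a3 overlap Plg on the opposite strand.

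Genes that work with solute carriers but carry other names gave a like picture. Of 39 such transporters and partners 35 were measured, with 0 called and a median log2 difference of 0.04. Txnip, which restrains glucose uptake, stood at 581 ± 74.8 CPM in WT against 884 ± 159 CPM in HET, and it was the only one with an unadjusted p under 0.05 (adjusted p = 0.0672 in edgeR, log2 difference 0.61 ± 0.13). For Txnip all HET libraries lay above all WT libraries. It was 1 of 35 tested genes in both respects (2.86%), against 5.22% of all genes by unadjusted p and 10.3% without overlap. Of 37 genes of amino acid sensing upstream of mTORC1, 34 were measured and 33 tested, with 0 called. Atf4 stood at 516 ± 118 CPM in WT against 375 ± 35.8 CPM in HET, with overlap (log2 difference -0.46 ± 0.15, adjusted p = 0.514).

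All 12 stem cell markers were measured, with summed levels of 3693 to 3990 CPM in WT against 3400 to 4026 CPM in HET. The 12 megakaryocyte markers all had positive log2 differences (median 0.23) and summed to 1386 to 1498 CPM in WT against 1630 to 1863 CPM in HET, without overlap. Of 9 genes used as markers of cells that the sort selects against, 5 were measured, and their sum (143 to 241 CPM in WT, 229 to 279 CPM in HET) came mostly from the pan-blood gene Ptprc, which stem cells also express. All 4 tested genes of that list had positive log2 differences (median 0.98), with 0 called. The unadjusted p was under 0.05 for 3 (75%: Ptprc, Cd48 and Itgam), against 5.22% of all genes. The groups did not overlap for 3, all higher in HET (75%: Cd48, Cd4 and Itgam), against 4.69% of all genes higher. With so few genes, most of them scarce, these shares are a description only. Cd48, whose protein the gate excludes, measured 3.25, 2.74 and 1.67 CPM in WT against 3.67, 8.29 and 8.96 CPM in HET, a log2 difference of 1.41 ± 0.61 (adjusted p = 0.849 in edgeR). Itgam, a myeloid integrin, measured 11.9, 6.95 and 10.02 CPM in WT against 16.7, 29.0 and 13.1 CPM in HET (log2 difference 1.02 ± 0.36, adjusted p = 0.630 in edgeR). The gate acts on surface protein, and both RNAs were also read in the WT libraries. Whether the sort differed between the groups was not tested. Erythroid markers (10 of 14) summed to 752 to 835 CPM in WT against 651 to 730 CPM in HET, again without overlap, mostly from Car2, which stem cells also express. Neutrophil markers (11 of 13) ran from 148 to 659 and from 212 to 479 CPM, macrophage markers (10 of 11) from 166 to 212 and from 177 to 197 CPM, lymphoid markers (4 of 12) from 15.2 to 23.4 and from 20.1 to 21.4 CPM, and endothelial and stromal markers (6 of 9) from 170 to 234 and from 224 to 242 CPM. The part of the sort-negative, megakaryocyte and erythroid markers in the transporter values was not tested.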

How the data were processed

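The authors deposited whole-number read counts per gene for the 6 libraries. The mm10 build, STAR 2.5.2b, limma, edgeR and FastQC are listed in the submitters' processing notes, with the counter, annotation and strand setting not given in the sources used here. The protocol fields attached to the samples describe other material and were not used. Groups follow the genotype labels, since the titles call HET knockouts.

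The test was run in R 4.3.3 with edgeR 4.0.16 (filterByExpr, TMM, robust quasi-likelihood F test, Benjamini-Hochberg adjustment over all 10869 genes tested, threshold 0.05, group as the only term). The biological coefficient of variation was 20.7%. Standard errors were derived from the F statistic. CPM was computed on TMM-scaled library sizes, and lengths per kilobase were the union of GENCODE M21 exons (GRCm38), which can exceed the main transcript. DESeq2 1.42.0, limma 3.58.1 (voom), other scalings and filters, a replicate block, thinning of HET 1 and leaving out libraries were alternatives. The code was tested on simulated data.

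The members, lists and tests were chosen with earlier results of these data known. Named genes were the 4 of smallest p and the 2 of highest level per kb in each substrate group, the MYC-described list, the 5 most abundant members per kb, and, among members without overlap, all those higher and the 6 lower of largest difference. Slc15a2, Slc25a1, Slc38a1, Slc7a11 and the gene ratios were added with their values already seen. A few genes that the rule names are not reported here. Intervals cover the spread between these libraries.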

Additional observations from a re-analysis of the deposited data

How the results depend on the processing

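No solute carrier gene was called in any of the 15 alternative fits, and the smallest adjusted p was 0.0515 in edgeR (Slc3a2 without HET 1). DESeq2 gave an adjusted p for only 149 members. Of 731 values of the 49 genes chosen for naming under alternatives, 708 kept their sign and 23, in 12 genes, had the opposite sign. The amino acid median of -0.04 became -0.0947 with limma-voom, -0.0859 with HET 1 thinned and -0.0865 with both libraries numbered 1 left out, a choice made after seeing the data. The Slc25 median of 0.07 became -0.0055 with the stricter filter (30 counts in 3 libraries), 0.0045 with limma-voom and 0.0079 with HET 1 thinned to 0.507 of its counts. Slc35a4 became 0.0045 with upper quartile scaling, 0.018 with limma-voom and 0.041 without the libraries numbered 1, where Slc19a1 became -0.033. The cause was not tested.

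Leaving out 1 library at a time, the number of members with an unadjusted p under 0.05 ran from 5 (without HET 4) to 12. The median log2 difference ran from -0.027 to 0.053 over all members, from -0.125 to -0.0558 for amino acids, from -0.0025 to 0.16 for ions and from -0.021 to 0.049 for the Slc25 family. The genes whose sign turned ran from -0.024 to 0.55 (Slc14a1), -0.086 to 0.23 (Slc19a1), -0.044 to 0.27 (Slc25a5), -0.079 to 0.37 (Slc29a2), -0.013 to 0.099 (Slc2a3), -0.24 to 0.15 (Slc35a3), -0.088 to 0.10 (Slc35a4), -0.089 to 0.0069 (Slc48a1), -0.017 to 0.28 (Slc5a3), -0.15 to 0.089 (Slc7a5), -1.39 to 0.20 (Slc15a2) and -0.14 to 0.025 (Slc38a1).

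Same-numbered libraries correlated in their deviations from the group means at 0.117, -0.060 and 0.063 for numbers 1, 3 and 4. Different-numbered pairs ran from -0.188 (WT 4 with HET 1) to 0.136 (WT 4 with HET 3), so the same-numbered values did not stand out. The numbers were not taken to pair the libraries, a question that 3 libraries per group cannot settle. The libraries numbered 1 stood apart for some genes, and what the numbers mark is not stated. With the replicate block, 0 members were called and 12 had an unadjusted p under 0.05. Intervals were wider for the 97 members of lower abundance, at a median half-width of 0.749 log2 units against 0.373 for the others. The part of depth in this was not tested.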

Other observations

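Among the 170 tested solute carrier genes, the 2 libraries numbered 1 did not overlap the other 4 for 37 (21.8%; 15 higher and 22 lower), against 17.3% of all genes tested. Slc6a6, the taurine importer, was on the higher side at 209 CPM in WT 1 and 214 CPM in HET 1, against 156 and 184 CPM in WT 3 and 4 plus 185 and 184 CPM in HET 3 and 4. Slc15a4, a lysosomal histidine and peptide transporter, was on the lower side at 29.6 and 29.7 CPM in WT 1 and HET 1, against 56.5 and 45.1 CPM in WT 3 and 4 plus 41.9 and 36.2 CPM in HET 3 and 4. Both genes were picked after their values were seen, and the labels do not say what the number marks. The iron exporter Slc40a1 was scarce in every library, at 5.23, 1.65 and 0.238 CPM in WT 1, 3 and 4 against 4.17, 3.71 and 2.53 CPM in HET.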
